A study of Mus musculus and Homo sapiens with 110 samples.

Results

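The 6 wells of A431 cells that received a chemically modified *ACTN1* siRNA were compared with the 16 wells of A431 cells that received no siRNA (labelled UTC). A431 is a human epidermoid carcinoma cell line. The modified wells were chosen by their labels, Actn1-MOP and Actn1-iBu, with 1 well of each compound at 0.2, 1 and 5 uM. They hold 12 of the 34 libraries of A431 cells and of the 110 libraries of the series, since each treated well was sequenced in 2 technical libraries, which were summed. Another 3 wells received the unmodified parent siRNA at the same doses. All treated wells were transfected with a cationic lipid while the cells were being plated, and their RNA was collected some days later. Whether the UTC wells received the lipid is not stated in the sources used here. The labels give a dose to the UTC wells too, which is 10 uM in 13 of the 16, and these doses were not used. The other libraries of the series are from mouse liver and were not analysed here.

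An siRNA is a short double-stranded RNA whose guide strand is loaded into Argonaute. The loaded guide pairs along its length with the intended mRNA, which is then cleaved. The seed, a short stretch near the 5′ end of the guide, can also pair with other mRNAs, mostly in their 3′ untranslated regions, and lower them as a microRNA does. In the modified compounds, 1 phosphate linkage in the seed of the guide is replaced by an uncharged alkyl phosphonate, methoxypropyl phosphonate in MOP and isobutyl phosphonate in iBu. Both modified guides also carry a deoxy sugar next to this linkage, which the parent guide does not. The target, *ACTN1*, encodes alpha-actinin 1, which crosslinks actin filaments. The comparison with UTC wells asks how many transcripts differ after such an siRNA. Transcripts of the target were not identified or removed, so the counts below are not counts of unintended changes alone. The comparisons among treated wells ask whether the modified siRNAs differ from each other and from the parent. Against the parent, the linkage and the deoxy sugar cannot be told apart.

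RNA was measured as QuantSeq libraries, in which reads start near the 3′ end of a polyadenylated transcript. The deposited values are estimated counts for 228297 human transcripts, which the files name by identifier alone. No table of human transcripts and genes was used here, so the level of *ACTN1* itself, the matches to the seed, the markers of A431 cells and the genes behind the changes were not analysed. Total counts were 2663537 to 4180695 (median 2972246) in the UTC libraries and 5551496 to 7193125 in the modified wells after summing. Between 70.9% and 78.5% of the counts of a library were in estimates that were not whole numbers, where reads were divided among transcripts. The UTC wells A21, I21 and O21 stood apart from the others. On the first principal component of the 22 wells they lay between -101 and -86.7, whereas the other UTC wells lay between -42.4 and 52 and the modified wells between -13.5 and 24.2. In these 3 wells 1023 to 1158 tested transcripts were over 4-fold from the mean of the UTC wells. The other UTC wells had 593 (G23) to 913 (C21) such transcripts, and the modified wells, with summed libraries, 428 to 552. Each plate position was given by a label. The treated wells lay in plate columns 1, 3 and 5, with the parent in row A, MOP in row C and iBu in row E. The UTC wells lay in columns 21 and 23 with 8 wells each. Position on the plate therefore cannot be told apart from treatment, nor column from dose, nor row from compound. The labels do not say whether the wells came from separate cultures, so the p-values measure the spread between wells only.

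Few transcripts passed the test between the modified and the UTC wells, and 2 of the called transcripts fell by much more than the rest. Of 14983 transcripts tested, 64 (0.427%) had an adjusted p under 0.05 (edgeR quasi-likelihood test with Benjamini-Hochberg adjustment) and are named called below. Of these, 33 rose (0.22% of those tested) and 31 fell (0.207%). Only 7 (0.0467%) met the criteria for a differentially expressed transcript (DEG), a change of over 2-fold with p under 0.01 and q under 0.1, of which 2 rose and 5 fell. An unadjusted p under 0.05 was found for 1121 transcripts (7.48%). The median change over all transcripts tested was 0.0080 on the log2 scale. With the plate row as a covariate, a fit added after the data were seen, 8 transcripts were called, 5 of them among the 64. With the UTC wells of rows C and E only, 12 were called, 6 of them among the 64. The modified wells lie in these rows only, so both settings compare them with the same 2 UTC wells of each row. Without the wells A21, I21 and O21, 91 transcripts were called, of which 57 were among the 64. The count was lower without any single modified well. It was 44, 43 and 37 without MOP at 0.2, 1 and 5 uM, and 26, 36 and 26 without iBu at these doses.

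**Figure D1:**
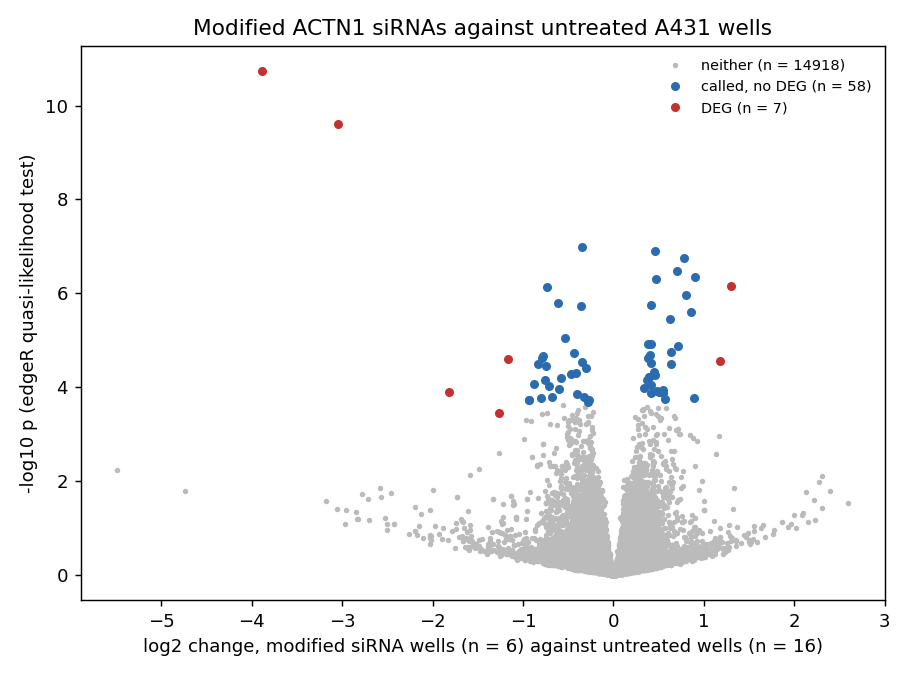
Change of each of the 14983 transcripts tested in the 6 modified wells against the 16 UTC wells (x axis, log2) and -log10 of its unadjusted p from edgeR (y axis). Grey points are not called, blue points are called but are no DEGs and red points are the 7 DEGs, and the 2 uppermost red points are the transcripts at -3.89 and -3.05.

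The transcript ENST00000553882.1, 2636 nt long in the files, fell most among the called transcripts. It stood at 28.4 to 118 CPM (median 96.5), the count scaled to the normalised size of its library in the UTC wells. In the wells given 0.2, 1 and 5 uM it stood at 7.25, 3.75 and 5.84 CPM with MOP and at 3.54, 5.88 and 8.87 CPM with iBu. All 6 modified wells lay below all 16 UTC wells, and neither compound had its lowest value at the highest dose. The mean was 87.2 ± 28.1 CPM (SD, n = 16) in UTC and 5.85 ± 2.04 CPM (SD, n = 6) in the modified wells, which is 93.3% lower. The log2 change was -3.89 (SE 0.31, adjusted p = 2.77e-07 from edgeR).

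The second was ENST00000193403.10, with a length of 3779 nt. Its level was 34.6 to 126 CPM (median 82.5) in the UTC wells. With MOP it was 7.07, 13.8 and 8.84 CPM at 0.2, 1 and 5 uM, and with iBu it was 9.92, 11.1 and 5.63 CPM. Again the modified and UTC wells did not overlap. The mean fell from 77.3 ± 26.0 CPM (SD, n = 16) to 9.38 ± 2.91 CPM (SD, n = 6), or by 87.9%, with a log2 change of -3.05 (SE 0.28, adjusted p = 1.83e-06 from edgeR). For both transcripts the two-sided exact permutation test over wells gave p = 1.34e-05, the smallest p that the 74613 arrangements of 6 and 16 wells allow. The named transcripts were chosen by their edgeR p in these same wells, and no permutation p was adjusted. The permutation p-values here and below are therefore no separate support. Over all tested transcripts, the 6 modified wells lay below all UTC wells for 6 (0.04%) and above them for 13 (0.0868%).

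Both transcripts also varied among the UTC wells. ENST00000193403.10 held 74.7 to 126 CPM in the UTC wells of rows A to I, and 5 of the 6 wells of rows K, M and O lay below all of these. For ENST00000553882.1 the same held for 3 of the 6, and K21 and O23 were at 91 and 102 CPM, within the 59.8 to 118 CPM of rows A to I. Their summed level was 174 to 207 CPM (193 ± 10.9, SD, n = 10) in the UTC wells of rows A to I. In rows K, M and O it was 63 to 185 CPM (n = 6), and 5 of these 6 wells lay below every UTC well of the other rows. The lowest were M21 with 63 CPM and M23 with 83.2 CPM, followed by K23 with 108 CPM, O21 with 110.1 CPM and O23 with 154 CPM. K21 held 185 CPM, within the range of the upper rows. All of these values were above those of the modified wells, which held 13.5 to 17.5 CPM (15.2 ± 1.61, SD, n = 6). The parent wells held 10.2 to 15 CPM (n = 3). What set these UTC wells lower was not tested. In M21, M23, K23, O21 and O23 the median log2 difference from the UTC mean was -0.0035 to 0.049 for the 33 called transcripts that rose and -0.082 to 0.096 for the 31 that fell, which include this pair. Both M wells had the sign of the modified wells in both groups. So did the UTC well E21 (medians 0.076 and -0.053), whose summed level of 197 CPM was within that of the upper rows. In M23, 22 of the 33 lay above and 20 of the 31 below the UTC mean. In M21 21 and 17 did, and in E21 22 and 17. With the UTC wells of rows A to I only, a comparison chosen after these values were seen, the log2 changes were -4.10 (adjusted p = 3.22e-08 from edgeR) and -3.30 (adjusted p = 3.41e-08 from edgeR). This comparison called 32 transcripts, 29 of them among the 64, and gave 7 DEGs, 4 of them among the 7 of all UTC wells.

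**Figure D2:**
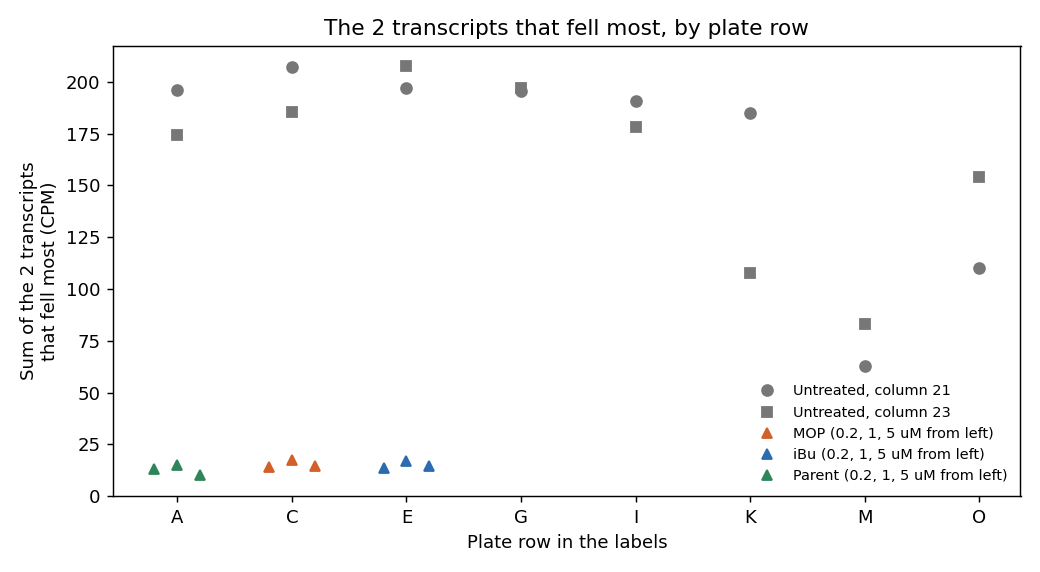
Summed level of the 2 transcripts that fell most (y axis, CPM, starting at 0) in every A431 well by its plate row (x axis), with UTC wells in grey (column 21 as circles, column 23 as squares) and treated wells as triangles at 0.2, 1 and 5 uM from left to right. UTC wells in rows A to I lie between 174 and 207 CPM, those in row M at 63 and 83.2 CPM, and the modified wells between 13.5 and 17.5 CPM.

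Among the transcripts that rose, ENST00000278282.3 (443 nt) had the largest change. Its counts were whole numbers in every library, so no division of its reads among transcripts showed in them. The UTC wells held 23.2 to 57.8 CPM (median 32.9). The wells given 0.2, 1 and 5 uM held 137, 41.9 and 85.8 CPM with MOP and 75.3, 101 and 86.3 CPM with iBu. MOP at 1 uM lay within the range of the UTC wells, and the other 5 modified wells lay above all of them. The mean was 35.3 ± 10.1 CPM (SD, n = 16) in UTC and 87.9 ± 31.3 CPM (SD, n = 6) in the modified wells, 2.49-fold higher. The log2 change was 1.30 (SE 0.19, adjusted p = 0.00111 from edgeR), and the two-sided exact permutation test gave an unadjusted p = 8.04e-05. The call was lost with the plate row as a covariate (log2 change 1.26, adjusted p = 0.242 from edgeR). It was also lost with the UTC wells of rows C and E only (1.27, adjusted p = 0.306 from edgeR). Both settings compare the modified wells with the same few UTC wells, so they are not separate checks.

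The other DEG that rose, ENST00000469442.5 (1893 nt), was a transcript of low level. It held 1.03 to 4.64 CPM (median 2.63) in the UTC wells. With MOP it held 4.09, 7.49 and 5.52 CPM at 0.2, 1 and 5 uM, and with iBu 8.86, 4.99 and 6.33 CPM. MOP at 0.2 uM lay within the range of the UTC wells. The mean rose from 2.71 ± 0.98 CPM (SD, n = 16) to 6.21 ± 1.74 CPM (SD, n = 6). The log2 change was 1.18 (SE 0.22, adjusted p = 0.0147 from edgeR and unadjusted p = 5.36e-05 in the two-sided exact permutation test). This call was lost in 9 of 36 other settings, among them both plate columns of UTC wells taken alone (adjusted p = 0.0656 and 0.0786 from edgeR).

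**Figure D3:**
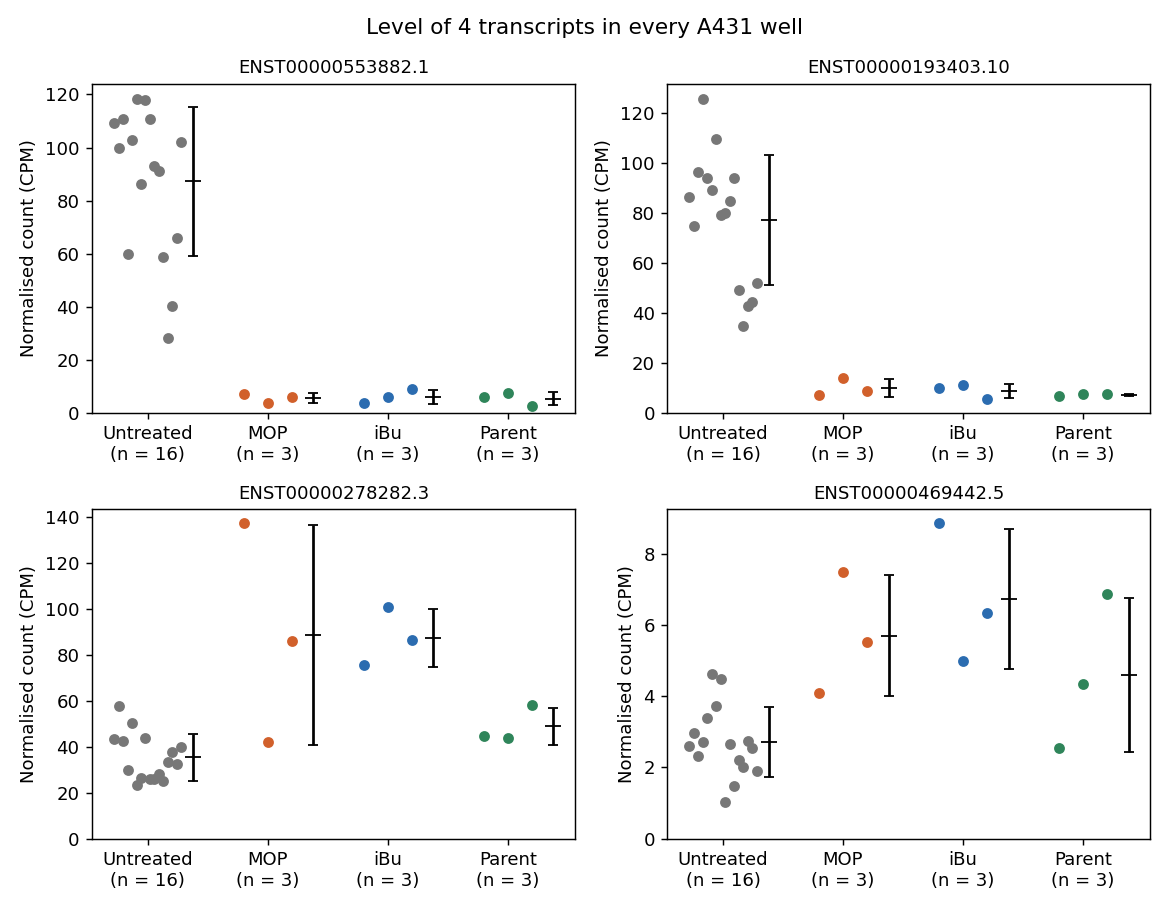
Level of 4 transcripts in every A431 well (y axes, CPM, starting at 0), by group on the x axis, with treated wells at 0.2, 1 and 5 uM from left to right and the mean and SD of each group in black. The modified wells lie below all UTC wells for both transcripts that fell, and 1 MOP well overlaps the UTC wells for each transcript that rose.

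The remaining DEGs all fell. One fell from 9.71 ± 1.98 CPM (SD, n = 16) to 4.32 ± 2.02 CPM (SD, n = 6), a log2 change of -1.17 (adjusted p = 0.0138 from edgeR). Another fell from 12.8 ± 7.23 CPM (SD, n = 16) to 3.63 ± 0.97 CPM (SD, n = 6), a log2 change of -1.82 (adjusted p = 0.0368 from edgeR). This transcript also differed between the UTC wells of the plate columns, with a mean of 6.16 CPM in column 21 and 19.5 CPM in column 23 (log2 difference 1.66, adjusted p = 9.76e-06 from edgeR). The last went from 3.06 ± 0.92 CPM (SD, n = 16) to 1.26 ± 0.77 CPM (SD, n = 6). It met the criteria for a DEG with a log2 change of -1.27 but was not called (adjusted p = 0.0675 from edgeR). Columns 23 and 21 of the UTC wells differed in 3 of 12886 transcripts (0.0233%), all higher in column 23, and 790 had an unadjusted p under 0.05. Among transcripts whose counts were whole numbers in every library, 2 (0.119%) differed.

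Most changes were small. The median change of the 64 called transcripts was 1.48-fold in either direction, and 34 of them changed by less than 1.5-fold. The 33 that rose had log2 changes of 0.34 to 1.30 (median 0.49), and the 31 that fell had log2 changes of -3.89 to -0.27 (median -0.68). For 16 of the 64 the modified and the UTC wells did not overlap (10 that rose and 6 that fell), with changes as small as -0.35 on the log2 scale. The modified wells, with their summed libraries, had higher total counts than the UTC wells (5551496 to 7193125 against 2663537 to 4180695), and the part of depth in the lack of overlap was not tested. With technical library 1 alone for each modified well, 47 of 14594 transcripts were called, 35 of them among the 64. Around the threshold of the test, the last transcript called had a log2 change of -0.28 (adjusted p = 0.0486 from edgeR) and the next one had -0.56 (adjusted p = 0.0546 from edgeR).

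The called transcripts were of a higher level than the tested transcripts as a whole. Their median length was 1970 nt, against 2168 nt over all transcripts tested, and their median level in UTC was 33.7 CPM against 11.1 CPM. In 4 bins of equal size by UTC level, 4, 11, 15 and 34 transcripts were called from the lowest to the highest (0.107%, 0.294%, 0.401% and 0.908% of those tested). The median standard error of the log2 change fell over the same bins from 0.36 to 0.10. In 4 such bins by length, 19, 16, 12 and 17 were called from the shortest to the longest.

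Transcripts whose counts were whole numbers in every library varied less between wells and were called more often. Of the 64 called transcripts 19 (29.7%) and of all tested 1840 (12.3%) had whole-number counts in every library. Such transcripts were called in 1.03% of cases and the others in 0.342%. When transcripts with whole-number counts were tested alone, the biological coefficient of variation was 14.1%, against 44.5% for all transcripts. Of 1859 such transcripts, 68 (3.66%) were called, 32 higher and 36 lower, with adjustment over these alone, and 2 were DEGs. The median log2 change of those that rose was 0.47 and of those that fell -0.48, and the range was -1.83 to 1.29. Of the 1859, 293 had an unadjusted p under 0.05, against 136 of 1681 between columns 23 and 21 of the UTC wells. Over all transcripts, the 2 technical libraries of 1 well differed by a coefficient of variation of 42.1%, nearly as much as the UTC wells among themselves (48.5%, and 44.7% without A21, I21 and O21). The modified wells, each a sum of both libraries, differed by 33.4%.

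Every called transcript moved the same way in each modified well. In all 6 wells the 33 that rose were above the UTC mean and the 31 that fell were below it, which the choice by the pooled test favours. The median log2 difference of the transcripts that rose was 0.40, 0.45 and 0.59 in the MOP wells at 0.2, 1 and 5 uM and 0.61, 0.47 and 0.51 in the iBu wells. For those that fell it was -0.50, -0.48 and -0.56 with MOP and -0.54, -0.59 and -0.64 with iBu. In the UTC wells the medians lay between -0.078 and 0.076 for the first group and between -0.082 and 0.15 for the second. Over all tested transcripts the median was 0.073 to 0.089 in the modified wells and 0.022 to 0.059 in the UTC wells.

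**Figure D4:**
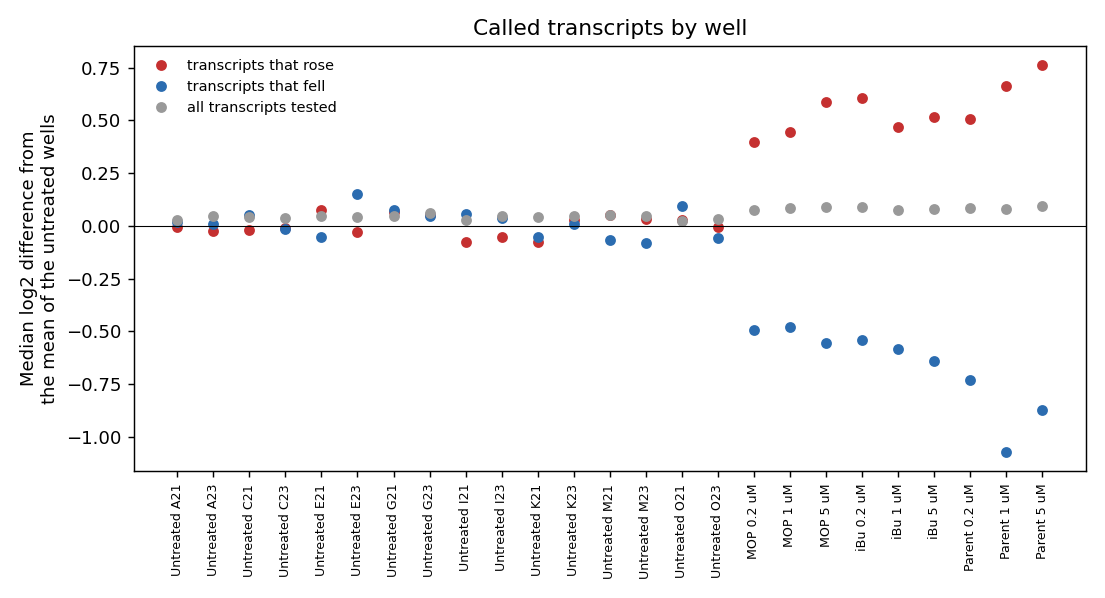
Median log2 difference from the mean of the UTC wells (y axis) in each A431 well (x axis), for the 33 called transcripts that rose (red), the 31 that fell (blue) and all 14983 tested (grey). The modified wells lie between 0.40 and 0.61 for the first group and between -0.64 and -0.48 for the second, and the UTC wells between -0.082 and 0.15 for both.

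No dependence on dose was detected. In a fit with the dose on a logarithmic scale, 0 of 14983 transcripts were called for a slope with edgeR and 0 with DESeq2. Only 179 had an unadjusted p under 0.05 with edgeR, a share under 0.05. The spread was taken over 22 wells, 16 of them UTC wells of 1 library each. Whether this made the test too strict was not tested. The median 95% half-width of a slope was 0.42 log2 units for each 5-fold step in dose. Among the 64, the slope had the direction of the change in 37 and an unadjusted p under 0.05 in 4. For ENST00000553882.1 the slope was 0.22 (95% interval -0.37 to 0.81), and for ENST00000193403.10 it was -0.14 (-0.73 to 0.46). With 1 well for each compound and dose, each single well was also set against UTC, with the spread taken from the UTC wells, which have 1 library each. These counts do not bear on the dose. MOP gave 0, 4 and 0 called transcripts (0%, 0.0267% and 0%) at 0.2, 1 and 5 uM, and iBu gave 10, 1 and 2 (0.0667%, 0.00667% and 0.0133%). With technical library 1 alone they were 15, 17 and 25 for MOP and 30, 22 and 23 for iBu. The median 95% half-width for a single well was 0.90 to 0.91 log2 units.

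MOP and iBu were each compared with the same 16 UTC wells, over their 3 doses. MOP had 3 called transcripts (0.02%), 1 higher and 2 lower, and 5 DEGs. iBu had 15 (0.1%), 10 higher and 5 lower, and 5 DEGs. An unadjusted p under 0.05 was found for 562 transcripts with MOP and 709 with iBu, each a share under 0.05 of the 14983 tested. The count for iBu was 8, 4 and 4 without its well at 0.2, 1 and 5 uM, and that for MOP was 5 without its well at 1 uM and 1 without its well at 5 uM. With whole-number transcripts alone, 10 (0.538%) were called for MOP and 24 (1.29%) for iBu. ENST00000553882.1 changed by -3.96 with MOP (adjusted p = 0.000209) and by -3.83 with iBu (adjusted p = 0.000302 from edgeR). ENST00000193403.10 changed by -2.97 (adjusted p = 0.00139) and -3.13 (adjusted p = 0.000737 from edgeR). For ENST00000278282.3 the log2 difference was 1.31 with MOP, which was not called (adjusted p = 0.0588), and 1.30 with iBu, which was (adjusted p = 0.0356 from edgeR). For ENST00000469442.5 it was 1.05 with MOP (adjusted p = 0.575) and 1.29 with iBu (adjusted p = 0.112 from edgeR), and neither was called.

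The difference between the linkages was itself tested, with the dose as a block. At matched doses 0 of 14983 transcripts were called between MOP and iBu with edgeR and 1 with DESeq2, and 105 had an unadjusted p under 0.05. The median 95% half-width was 0.70 log2 units, so differences below about this size could not be seen for a typical transcript. For ENST00000553882.1 the MOP wells minus the iBu wells gave a log2 difference of -0.10 (95% interval -1.11 to 0.91), and for ENST00000193403.10 it was 0.16 (-0.72 to 1.04). It was -0.13 (-0.89 to 0.63) for ENST00000278282.3 and -0.24 (-1.14 to 0.66) for ENST00000469442.5. For each of the 4 the adjusted p was 1 (edgeR). Over the 64 the difference ranged from -0.55 to 0.57, and 0 of them had an unadjusted p under 0.05. The median log2 change against UTC was 0.44 with MOP and 0.54 with iBu for those that rose. For those that fell it was -0.60 and -0.66. The 64 were measured in the same few wells, so these medians do not rank the compounds. Tested over transcripts with whole-number counts only, 0 of 1859 were called between the compounds with edgeR (21 with an unadjusted p under 0.05), and the median half-width was 0.44.

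**Figure D5:**
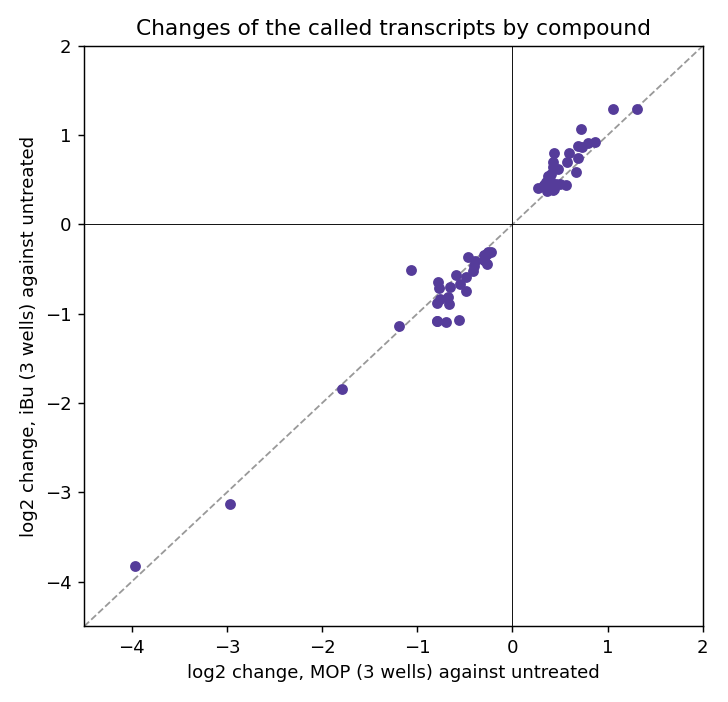
Log2 change against the UTC wells of the 64 called transcripts with MOP (x axis) and with iBu (y axis), 3 wells each, with the dashed line where both are equal. Both axes share the 16 UTC wells, and the points, which were chosen on the pooled wells, lie on the same side of 0 for both compounds.

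The parent wells differed from the modified wells in many transcripts. The parent wells lay in plate row A and the modified wells in rows C and E. Plate row therefore cannot be told apart from siRNA in this comparison. In a fit of all 25 A431 wells with 17471 transcripts tested, the parent wells had 1081 called transcripts against UTC (6.19%), 449 higher and 632 lower, and 272 DEGs. The modified wells in the same fit had 79 called transcripts and 16 DEGs. The difference of the parent and the modified wells at matched doses was called for 531 transcripts (3.04%), lower with the parent in 365 (2.09%) and higher in 166, and 178 transcripts met the criteria for a DEG in this comparison, 146 of them called. This count was 254, 205 and 170 without the parent well at 0.2, 1 and 5 uM. With whole-number transcripts alone it was 277 of 2002 (13.8%).

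The 2 transcripts that fell most were not among those that differed. ENST00000553882.1 had a level of 5.39 ± 2.44 CPM (SD, n = 3) in the parent wells, and its log2 level with the parent minus that with the modified siRNAs was -0.12 (95% interval -1.02 to 0.78, adjusted p = 0.983 from edgeR). ENST00000193403.10 had 7.33 ± 0.39 CPM (SD, n = 3), with a difference of -0.31 (-1.04 to 0.42, adjusted p = 0.885 from edgeR). ENST00000278282.3 had 48.8 ± 8.08 CPM (SD, n = 3) in the parent wells, and the difference of -0.83 (-1.45 to -0.21) did not pass the test over all transcripts (adjusted p = 0.18 from edgeR). ENST00000469442.5 had 4.59 ± 2.16 CPM (SD, n = 3), with a difference of -0.49 (-1.27 to 0.28, adjusted p = 0.735 from edgeR). Of the 64 called transcripts, 15 differed between the parent and the modified wells, 7 of those that rose and 8 of those that fell, where 3.04% of all tested did. The parent was higher in 5 of the 7 and lower in 7 of the 8. The 64 were chosen on the modified wells that this difference includes. Their median log2 change with the parent was 0.57 for those that rose and -0.95 for those that fell, against 0.49 and -0.68 in the modified wells.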

How the data were processed

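Expression in A431 cells was measured with QuantSeq in 34 libraries of 25 wells. The processing notes of the submitters name STAR and Salmon 0.7. File names say that duplicates were removed, without saying how. The notes list the mouse build mm10 for these human libraries too, and no source used here names the human build or annotation. Each expected count, deposited as the authors' Salmon run gave it, is an estimate of the reads of 1 transcript in 1 library, with no normalization. Here they were summed over the technical libraries of a well and rounded to whole numbers. The design had allowed for genes, but transcripts were tested, as no table of human transcripts and genes was used. The mouse libraries (76) were left out.

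Counts were tested in R 4.3.3 with edgeR 4.0.16 (filterByExpr, TMM and the quasi-likelihood test, Benjamini-Hochberg adjustment over all transcripts tested). The modified wells were compared with UTC in a fit of 22 wells without covariates. MOP, iBu, the dose slope (compound as covariate) and single wells came from fits of the same wells, and the parent from a fit of 25 wells. Differences between siRNAs had the dose as a block. CPM values use TMM over the 25 wells, and log2 levels per well a prior count of 2. Counts were taken as whole within 1e-06. Single transcripts, chosen by their edgeR p in the same wells, were tested with a two-sided exact permutation test on mean log2 CPM, without adjustment. Alternatives were DESeq2 1.42.0, RLE size factors, a robust fit, no filter, technical library 1 only, whole-number transcripts only, subsets of UTC wells, the plate row as a covariate, the mean of 6 well coefficients, and each well left out. Scripts were tested on simulated data.

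The text names the 2 transcripts that rose and the 2 that fell with the smallest p among DEGs whose 6 wells lie on 1 side of the UTC mean. The members, groups and tests were chosen with earlier results of these data known.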

Additional observations from a re-analysis of the deposited data

Results flagged for a closer look

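A test of the difference itself separated the parent wells from the modified wells, which lie in other plate rows, in 531 of 17471 transcripts. It did so in 15 of the 64 called for the modified wells against UTC. Among the 7 DEGs of the modified wells, 1 differed from the parent in this test. Its mean was 3.06 CPM in UTC and 1.26 CPM in the modified wells, and its log2 level was 1.59 higher with the parent (adjusted p = 0.0336 from edgeR). This transcript was not called in the modified wells against UTC (adjusted p = 0.0675 from edgeR). No modified well stood apart from the other 5 in the levels of the 4 named transcripts, in total counts or in the median changes of the called transcripts, by Dixon's criterion at 95%.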

How the results depend on the processing

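The 64 calls for the modified against UTC wells became 208 with DESeq2 (all 64 among them, 79 higher), 39 with no filter (30 of the 64, 35 higher), 19 with UTC column 21 only, 12 with UTC rows C and E only, 8 with the plate row as a covariate, 40 with UTC wells labelled 10 uM only and 32 with UTC rows A to I only. Without single wells the count was 26 to 73. The share that rose was 51.6%, against 38% with DESeq2, 89.7% without the filter and 36% with the mean of 6 well coefficients (18 of 50). The 7 DEGs became 13 with DESeq2, 20 with no filter, 12 with technical library 1 only, 2 with whole-number transcripts only, 12 with UTC column 23 only, 16 in the fit of 25 wells, 20 with the mean of 6 well coefficients and 11 without A21, I21 and O21. They were 5 to 12 without single wells, with 12 without the UTC well G21.

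MOP had 34 calls with DESeq2, 8 with no filter, 5 with technical library 1 only, 10 with whole-number transcripts, 7 without A21, I21 and O21 and 1 to 5 without single wells. iBu had 88 with DESeq2, 24 with whole-number transcripts and 4 to 14 without single wells. MOP minus iBu had 1 with DESeq2, and the difference of the parent and the modified wells had 1004 with DESeq2, 195 with no filter, 277 with whole-number transcripts and 170 to 448 without single wells. Single wells with technical library 1 only gave 15, 17 and 25 calls for MOP and 30, 22 and 23 for iBu at 0.2, 1 and 5 uM. Column 23 against 21 of the UTC wells gave 10 calls with DESeq2. The causes were not tested.

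The 4 named transcripts kept their direction in all 145 values under these alternatives and passed the threshold in 134. Both that fell passed in each of theirs, with log2 changes of -4.10 to -3.78 and -3.43 to -2.93. ENST00000278282.3 failed with UTC rows C and E only (adjusted p = 0.306 from edgeR) and with the plate row as a covariate (0.242). ENST00000469442.5 failed in 9, with adjusted p from 0.000209 to 0.549 over all of them; leaving out MOP at 1 uM, iBu at 0.2 uM or iBu at 5 uM gave 0.0512, 0.0793 and 0.0511 (edgeR).

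The transcripts of 1 gene share reads, and a change of the whole gene cannot be told apart here from a shift between its transcripts. At a median 95% half-width of 0.39 log2 units, smaller changes were not detectable for a typical transcript. The interval is not adjusted for the number of transcripts, so a call needed a larger change still. The alternatives with A21, I21 and O21 left out, with UTC rows A to I only and with the plate row as a covariate were chosen after seeing the data. No paired analysis was possible because the labels of the wells carry no replicate numbers that the groups share; the dose was a block among treated wells.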
